A study of Homo sapiens with 6 samples.

Results

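The WNT ligands, their Frizzled receptors and the secreted antagonists of the SFRP and DKK families were examined for 2 histone marks, H3K27me3, which Polycomb writes on silent developmental genes, and H3K4me3, which sits at promoters. Members were taken by symbol from the protein-coding genes of chromosomes 1 to 22 in a RefSeq gene table of GRCh38. This gave 37 of 19126 genes, with 19 WNT genes, 10 FZD genes, 4 SFRP genes and 4 DKK genes. The cells were endothelial cells derived from H1, an established human embryonic stem cell line, and all samples were labelled GATA2+ (positive for the blood and endothelial transcription factor GATA2). They had been derived with Vc in the condition labelled Vc+, or without it in the condition labelled Vc-, and the series title speaks of vitamin C. Each condition had 1 H3K27me3 library, 1 H3K4me3 library and 1 input, and the 2 inputs were not used here. All 4 file names contradict the sample labels on the condition. The labels were followed here, and if the file names are correct each difference between conditions runs the other way. The series text speaks of a comparison of GATA2 reporter positive and negative cells, which no sample label repeats, and the protocol names only H3K27me3 antibodies. With 1 library per mark and condition there is no replicate check and no test, and each difference is a difference between 2 libraries.

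WNT proteins are secreted, lipid-modified signals that bind the cysteine-rich domain of Frizzled receptors together with the co-receptors LRP5 or LRP6. This binding stabilises beta-catenin or, for other ligand and receptor pairs, steers cell polarity and calcium signalling. SFRP proteins carry a Frizzled-like domain and bind WNTs outside the cell, and DKK proteins such as DKK1 bind the LRP co-receptors. In the embryo WNT signals pattern the mesoderm from which endothelium arises, and in zebrafish wnt16, and wnt9a with the receptor fzd9b, are needed for blood stem cells. Genes that carry both H3K4me3 and H3K27me3 are called bivalent, a state common at developmental genes that are held silent but can be activated. Expression was not measured in these files.

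The deposited data were lists of islands, the stretches of the genome that a peak caller found enriched for a mark, each with a position and a score. On chromosomes 1 to 22 the H3K27me3 lists held 9534 islands (51.1 Mb) in the library labelled Vc+ and 8893 (40.2 Mb) in the library labelled Vc-. The H3K4me3 lists held 21311 islands (46.8 Mb) in Vc+ and 21583 (42 Mb) in Vc-. The read depth is unknown from these lists. Among markers used to check the label, all 10 endothelial genes carried an H3K4me3 island in both conditions, and so did 3 of 5 blood genes, 3 of 5 pluripotency genes, 4 of 5 mesenchymal genes and 5 of 5 neural genes, against 77.8% of all genes. H3K27me3 was called in both conditions at 5 of 5 neural genes, 3 of 5 mesenchymal genes, 3 of 10 endothelial genes and 1 of 5 blood genes, against 19.9% of all genes, and at none of the pluripotency genes in either. H3K4me3 was also found at genes of other lineages, so these calls do not set endothelium apart. Neither mark was called in either condition at the pluripotency gene NANOG, the blood genes PTPRC and SPN and the mesenchymal gene PDGFRB, and at the pluripotency gene POU5F1 neither was called in Vc-.

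Most of these genes carried both marks. A mark was called at a gene when at least 1 bp of an island fell in the gene span or the 5 kb to either side. H3K27me3 was called at 29 of 37 members in each library, the one labelled Vc+ and the one labelled Vc-. Over all 19126 genes the same rule called 24.2% in Vc+ and 22% in Vc-. H3K4me3 was called at 36 members in each condition, against 78.8% of all genes in Vc+ and 78.7% in Vc-. All 29 members with H3K27me3 also had H3K4me3 in the same condition. Among all genes with H3K27me3, H3K4me3 was also called at 4306 of 4637 in Vc+ and 3909 of 4211 in Vc-. Both marks were thus called at 29 of 37 members in each condition, against 22.5% of all genes in Vc+ and 20.4% in Vc-. A further 7 members in each condition had H3K4me3 alone, against 56.3% of all genes in Vc+ and 58.3% in Vc-. WNT8A alone had neither mark in either condition, against 19.4% of all genes in Vc+ and 19.7% in Vc-. No member had H3K27me3 alone (1.73% of all genes in Vc+ and 1.58% in Vc-). From bulk lists, marks on the same copy of a gene and marks in different cells of the mixture cannot be told apart. The share of members with both marks was above that of all genes in both conditions. The window grows with the gene, and the median gene length was 29.3 kb for the WNT genes, 5.74 kb for the FZD genes, 9.69 kb for the SFRP genes and 32.0 kb for the DKK genes. Within 1 kb of either gene end, windows that do not grow with the gene, H3K27me3 was called at 25 members in Vc+ and 25 in Vc-, against 17.1% of all genes in Vc+ and 15.7% in Vc-. In the same windows H3K4me3 was called at 31 members in Vc+ and 32 in Vc-, against 71.3% of all genes in Vc+ and 70.8% in Vc-.

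The conditions differed at a single gene in each direction. WNT9B had an H3K27me3 call under the label Vc+ but not Vc-, DKK1 had one under Vc- but not Vc+, and 28 members had one in both. Among all genes 19.9% (3803) were called in both, 4.36% (834) in Vc+ alone and 2.13% (408) in Vc- alone. As a share of all genes, 1 of 37 in each direction is close to this background. Relative to the genes called in both, calls in a single library were fewer at the members, with 1 and 1 beside 28. No test of this was made. H3K4me3 was called in both conditions at 36 members (77.8% of all genes) and in a single condition at 0 members, against 1.04% of all genes in Vc+ alone and 0.894% in Vc- alone.

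**Figure D1:**
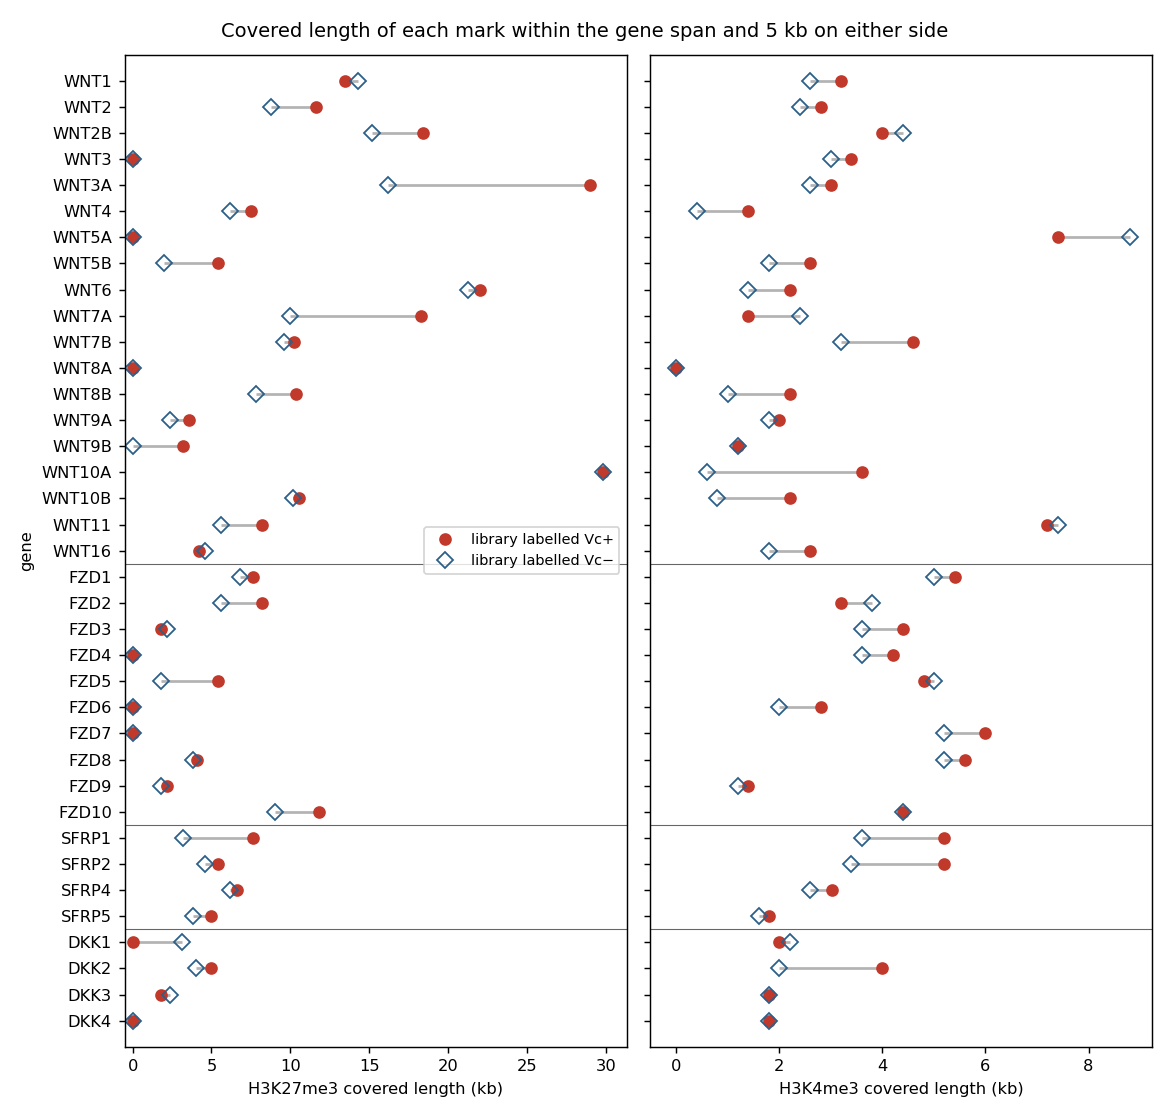
Length covered by H3K27me3 (left) and H3K4me3 (right), in kb, at each of the 37 genes in the library labelled Vc+ (filled circles) and the library labelled Vc- (open diamonds), with 1 library per point and lines between roles. H3K27me3 was longer in Vc+ at 23 of the 28 genes called in both libraries.

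WNT9B, a ligand that induces kidney tubules in the mouse, spans 46833189 to 46886738 on chromosome 17 and has its listed start at 46851583, inside that span. Its H3K27me3 island in the library labelled Vc+ was 3.2 kb wide, from 2.58 kb upstream to 0.617 kb downstream of the start, with a score of 26.7 that 27.2% of the islands of that list reached. In the library labelled Vc- the nearest H3K27me3 island lay 126 kb from the start. The H3K4me3 island at this start had the same ends in both libraries, 46851201 to 46852400, so the WNT9B promoter carried both marks by the Vc+ lists and H3K4me3 alone by the Vc- lists. The gene table also places LRRC37A2 over this stretch. DKK1, which blocks the LRP co-receptors, showed the opposite call. In the library labelled Vc+ the nearest H3K27me3 island lay 130 kb from the gene. In the library labelled Vc- an island of 4.8 kb ended 1.88 kb upstream of the start and did not reach the promoter. Its score was 3.21, and 88.5% of the islands of that list scored as high. The H3K4me3 island over the DKK1 start was 2 kb wide in Vc+ and 2.2 kb in Vc-, and 0% of it lay under H3K27me3 in Vc-. The calls at the 2 genes thus rested on islands of different kinds, 1 over a promoter and 1 weak and outside it.

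Promoters of 300 bases, 250 before and 50 after the listed start, were taken from RefSeq (GRCh38.p14) for 25 of the 37 members, which had 28 listed starts in all. The following 8 show WNT9B and DKK1, whose calls differed, WNT6 and WNT1, under the widest H3K27me3 islands of members in Vc+ (in Vc- an island of 7 kb covered the WNT6 start), FZD5, where the H3K27me3 island covered the start in Vc+ and stopped short of it in Vc-, FZD4 and WNT5A with H3K4me3 alone, and WNT8A with neither mark. Each is written 5′ to 3′ on the strand of the gene, with CG dinucleotides in capitals.
WNT9B promoter, chr17:46851333-46851632, plus strand: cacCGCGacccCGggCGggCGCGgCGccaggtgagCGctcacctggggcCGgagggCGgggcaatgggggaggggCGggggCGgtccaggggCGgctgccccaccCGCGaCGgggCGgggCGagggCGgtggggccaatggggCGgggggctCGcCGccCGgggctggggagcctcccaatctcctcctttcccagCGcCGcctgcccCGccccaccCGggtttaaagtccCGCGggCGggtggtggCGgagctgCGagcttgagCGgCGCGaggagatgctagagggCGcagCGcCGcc
DKK1 promoter, chr10:52314031-52314330, plus strand: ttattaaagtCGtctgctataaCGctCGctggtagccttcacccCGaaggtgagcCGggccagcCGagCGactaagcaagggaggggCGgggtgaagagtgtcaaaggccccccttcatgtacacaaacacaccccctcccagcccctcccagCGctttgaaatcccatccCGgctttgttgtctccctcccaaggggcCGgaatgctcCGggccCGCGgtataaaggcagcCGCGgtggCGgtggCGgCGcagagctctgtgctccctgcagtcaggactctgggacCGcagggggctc
WNT6 promoter, chr2:218859555-218859854, plus strand: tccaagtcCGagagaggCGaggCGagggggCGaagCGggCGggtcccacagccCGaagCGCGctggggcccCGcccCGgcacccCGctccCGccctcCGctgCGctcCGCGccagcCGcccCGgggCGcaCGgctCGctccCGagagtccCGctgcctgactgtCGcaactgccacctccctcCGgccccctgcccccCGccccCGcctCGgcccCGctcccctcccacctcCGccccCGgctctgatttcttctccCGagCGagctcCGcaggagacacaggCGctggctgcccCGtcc
WNT1 promoter, chr12:48978072-48978371, plus strand: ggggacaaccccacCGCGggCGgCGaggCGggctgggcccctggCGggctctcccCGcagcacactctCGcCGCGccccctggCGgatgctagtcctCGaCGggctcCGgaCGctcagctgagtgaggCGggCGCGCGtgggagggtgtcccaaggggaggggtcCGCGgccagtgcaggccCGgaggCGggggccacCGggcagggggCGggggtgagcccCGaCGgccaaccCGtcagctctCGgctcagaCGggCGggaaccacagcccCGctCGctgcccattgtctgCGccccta
FZD5 promoter, chr2:207769857-207770156, minus strand: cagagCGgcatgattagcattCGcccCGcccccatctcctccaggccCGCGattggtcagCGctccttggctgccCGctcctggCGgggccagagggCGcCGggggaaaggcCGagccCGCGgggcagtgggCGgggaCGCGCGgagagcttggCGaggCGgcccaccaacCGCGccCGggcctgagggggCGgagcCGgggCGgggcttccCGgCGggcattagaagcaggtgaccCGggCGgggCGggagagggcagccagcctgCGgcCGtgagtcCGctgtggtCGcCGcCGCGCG
FZD4 promoter, chr11:86955346-86955645, minus strand: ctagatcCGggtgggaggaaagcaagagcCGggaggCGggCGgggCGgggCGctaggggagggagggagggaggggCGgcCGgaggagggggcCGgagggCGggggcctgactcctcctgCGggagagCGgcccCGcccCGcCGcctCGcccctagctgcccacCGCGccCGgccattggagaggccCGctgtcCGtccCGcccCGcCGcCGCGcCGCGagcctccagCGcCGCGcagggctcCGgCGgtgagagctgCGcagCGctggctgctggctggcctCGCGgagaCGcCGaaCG
WNT5A promoter, chr3:55487257-55487556, minus strand: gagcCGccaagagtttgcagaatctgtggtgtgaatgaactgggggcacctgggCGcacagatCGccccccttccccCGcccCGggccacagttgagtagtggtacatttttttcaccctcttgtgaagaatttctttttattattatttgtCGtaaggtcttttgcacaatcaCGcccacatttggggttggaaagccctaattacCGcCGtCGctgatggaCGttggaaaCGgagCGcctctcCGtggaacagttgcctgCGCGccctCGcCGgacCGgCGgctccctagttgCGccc
WNT8A promoter, chr5:138083783-138084082, plus strand: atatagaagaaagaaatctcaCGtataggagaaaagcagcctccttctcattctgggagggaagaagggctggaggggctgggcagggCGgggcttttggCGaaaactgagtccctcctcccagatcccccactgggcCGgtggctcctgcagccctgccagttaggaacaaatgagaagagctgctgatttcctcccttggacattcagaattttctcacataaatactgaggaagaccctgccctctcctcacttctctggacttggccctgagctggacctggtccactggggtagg

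These promoters hold 38, 20, 37, 34, 38, 40, 21 and 4 CG dinucleotides, in the order shown. CG is its own reverse complement and its matches cannot overlap, so a single count covers both strands. Over 21156 starts of protein-coding genes on these chromosomes the median was 21, and 53.4% had 20 or more, as did 22 of the 28 member starts. WNT8A, a mesodermal ligand, and WNT8B had the fewest, with 4 each, a number that 85.4% of all promoters reached. WNT9A had the most, with 53, a number that 0.737% of all promoters reached. A start was under H3K27me3 in both libraries at 12 of 28 member starts (9.36% of all starts), with 15 to 53 CG dinucleotides (median 35.5). It was under H3K27me3 in neither library at 10 starts (87% of all starts), with 4 to 40 (median 20.5), and these ranges overlap. FZD4, with 40, was without H3K27me3 at its start, and SFRP2, with 15, had it in both libraries.

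**Figure D2:**
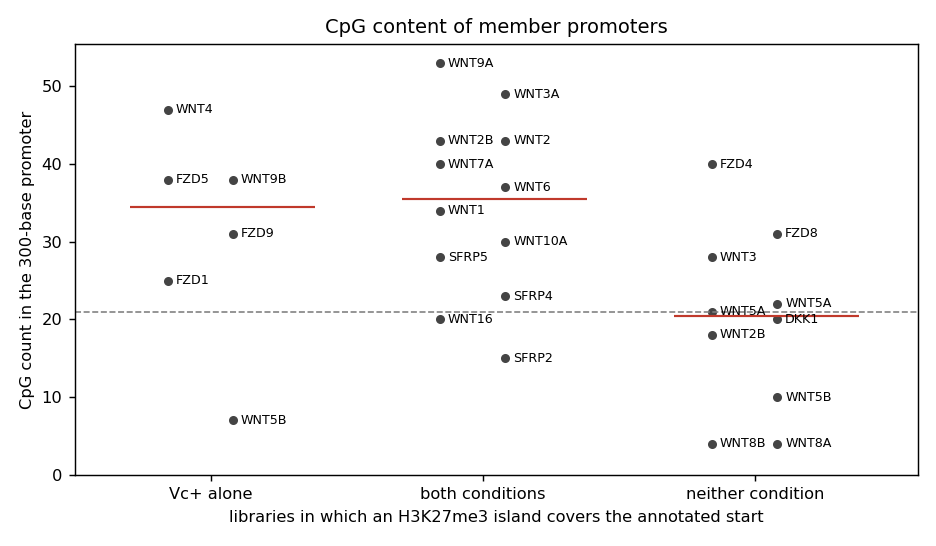
Count of CG dinucleotides in the 300-base promoter of each of 28 member starts, by the libraries in which an H3K27me3 island covers the start. Red lines are group medians (34.5 for Vc+ alone, 35.5 for both conditions, 20.5 for neither condition) and the dashed line is the median of all promoters, 21.

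A further 6 starts were under H3K27me3 in Vc+ alone and 0 in Vc- alone, against 2.72% of all starts in Vc+ alone and 0.898% in Vc- alone. These 6 were FZD1, FZD5, FZD9, WNT4, the later start of WNT5B, and WNT9B. At 5 of them Vc- had an island close by. The distance from the start to it was 0.022 kb at FZD9, 0.167 kb at FZD1, 0.496 kb at WNT4, 0.569 kb at WNT5B and 0.894 kb at FZD5. Island widths move in steps of 200 bp, so the first 2 of these distances are shorter than 1 step. WNT9B alone had no H3K27me3 island nearby in the library labelled Vc-. H3K4me3 covered 18 member starts in both libraries (65.5% of all starts) and 5 in neither (30.8%). It covered a start in Vc+ alone at 4 member starts and in Vc- alone at 1, against 2.27% of all starts in Vc+ alone and 1.38% in Vc- alone. The one in Vc- alone was the first start of WNT2B, and those in Vc+ alone were WNT1, WNT10A, WNT16 and the later start of WNT5B. In Vc- the nearest H3K4me3 island began at 121329001 beside the WNT16 start at 121329000, and lay 0.078 kb from the start of WNT1, both closer than 1 step of 200 bp. At WNT5B it lay 0.369 kb away and at WNT10A 11.9 kb.

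Among the ligands, the widest H3K27me3 islands lay over 2 gene pairs. WNT6 and WNT10A, both expressed in epithelia and the second a gene of tooth and hair development, lie next to each other on chromosome 2. In the library labelled Vc+ a single island of 47 kb, from 218857201 to 218904200, covered both genes. It ranked 23 by width among the islands of that list. In the library labelled Vc- the same stretch was called as islands of 7 kb and 38 kb with a gap inside WNT6, and the wider began at 218866401 and ranked 30 in its list. Covered length at WNT6 was 22 kb in Vc+ and 21.2 kb in Vc-, where part of it came from a further island of 2.6 kb upstream. At WNT10A it was 29.8 kb in both, which is the whole window, so a difference beyond the window would not show. The domain was thus joined in one library and divided in the other. Within it H3K4me3 was short. At WNT10A it covered 3.6 kb in 4 islands in Vc+ and 0.6 kb in 1 island in Vc-, and an island covered the WNT10A start in Vc+ while the nearest lay 11.9 kb away in Vc-. This was the largest difference in H3K4me3 length among the members, 3 kb, and it rested on islands of low score. The 4 in Vc+ scored 12 to 34, and the one over the start scored 14.8, which 81.1% of that list reached. Another of the 4, 0.8 kb wide with a score of 12, lay inside WNT6 and 2.315 kb from WNT10A. It is counted at both genes. The 1 in Vc- scored 14, which 83.1% of its list reached.

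WNT10B, a ligand of bone and fat development, and WNT1, which is needed for the midbrain, lie next to each other on chromosome 12 and also shared an H3K27me3 island. It was 20.6 kb wide in Vc+ (48966201 to 48986800) and 23.4 kb in Vc- (48966601 to 48990000), and its score was at the ceiling of 1000 in both. This island was wider in the library labelled Vc-, unlike most at these genes. Of it 13.5 kb in Vc+ and 14.3 kb in Vc- fell in the window of WNT1. H3K4me3 at WNT10B covered 2.2 kb in Vc+ and 0.8 kb in Vc-, and at WNT1 3.2 kb in Vc+ and 2.6 kb in Vc-. Each of these H3K4me3 islands lay within the shared H3K27me3 island. The other neighbouring ligand pairs did not share an island. WNT9A and WNT3A on chromosome 1 each carried H3K27me3 of their own in both conditions. WNT3, the primitive streak ligand beside WNT9B on chromosome 17, had none in either, and its nearest island was that of WNT9B in Vc+, 30.3 kb away.

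**Figure D3:**
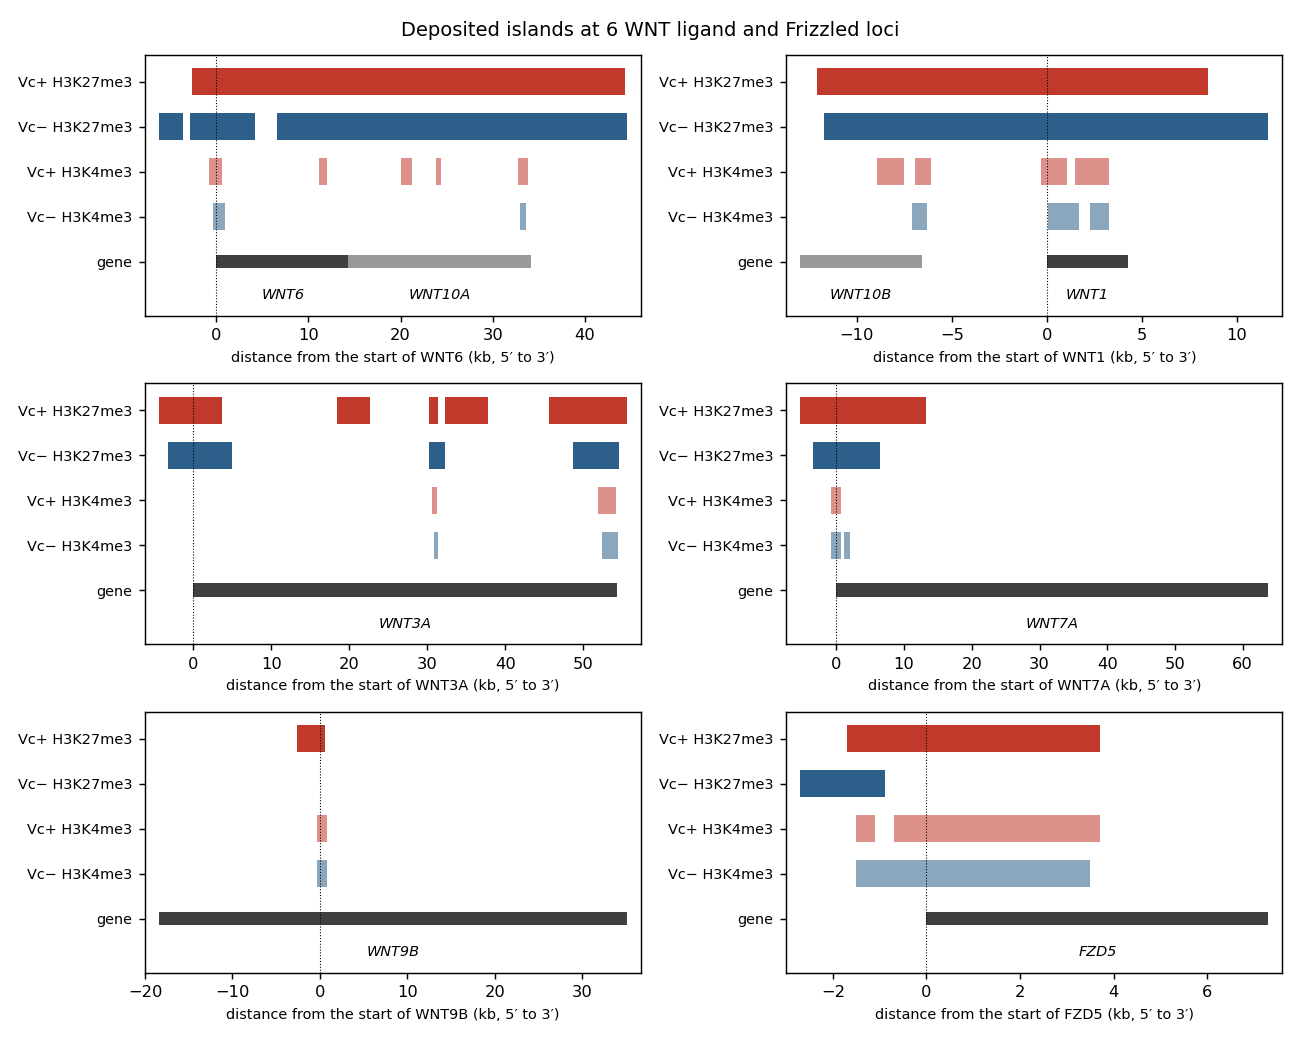
Deposited islands overlapping the window of each gene at 6 loci, by distance in kb from the start of the named gene (dotted line), with H3K27me3 (dark) and H3K4me3 (light) in the libraries labelled Vc+ (red) and Vc- (blue) and gene spans in grey. The 47 kb island over WNT6 and WNT10A in Vc+ stands above divided islands in Vc-, WNT9B has an H3K27me3 island in Vc+ alone, and the island at FZD5 lies over the start in Vc+ and upstream of it in Vc-.

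The covered length of H3K27me3 differed most at WNT3A and WNT7A. WNT3A, a strong activator of beta-catenin signalling, had 29.0 kb in Vc+, split over 5 islands, and 16.2 kb in Vc-, split over 3 islands. The island over its start was 8 kb wide in Vc+ and 8.2 kb in Vc-, so the difference lay inside the gene. There the island at the 3′ end was 10 kb wide in Vc+ and 6 kb in Vc-. Vc+ islands of 4.2 kb and 5.6 kb began 18.4 kb and 32.2 kb downstream of the start and overlapped none of the Vc- list. Their scores were 5.39 and 15.4. The 5.6 kb island began at 228039201, directly after a Vc- island that ended at 228039200. No H3K4me3 island lay within 30.6 kb of the WNT3A start in Vc+ or 30.8 kb in Vc-, and the H3K4me3 of this gene lay farther downstream, within the H3K27me3 islands. WNT7A, which with WNT7B acts on brain vessels, had 18.3 kb of H3K27me3 in its window in Vc+ and 10.0 kb in Vc-. Its island reached 13.3 kb into the gene in Vc+ and 6.47 kb in Vc-. WNT7B was nearly equal, with 10.2 kb in Vc+ and 9.6 kb in Vc-.

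Other ligands with a difference of 2 kb or more were all longer in the library labelled Vc+. WNT2, needed with Wnt2b for lung formation in the mouse, had 11.6 kb in Vc+ and 8.8 kb in Vc-. WNT2B had 18.4 kb in Vc+ and 15.2 kb in Vc-, in both cases over its later start and not its first. At the first WNT2B start an H3K4me3 island of 1 kb with a score of 7.98 was called in Vc- alone. WNT5B had 5.4 kb in Vc+ and 2 kb in Vc-. WNT8B, a ligand of the forebrain, had 10.3 kb in Vc+ and 7.8 kb in Vc-, at its 3′ part and on into SEC31B, 15.4 kb and 16.6 kb from its listed start. WNT11, which steers cell movement in the gastrula and the heart, had 8.2 kb in Vc+ and 5.6 kb in Vc-. It was also the one ligand with a long H3K4me3 island beside H3K27me3, 7.2 kb in Vc+ and 7.4 kb in Vc-, at the score ceiling in both. The remaining ligands differed less. WNT9A and WNT16, whose zebrafish counterparts act in blood stem cells, carried H3K27me3 over the start in both libraries. WNT9A had 3.6 kb in Vc+ and 2.4 kb in Vc-, and WNT16 had 4.2 kb in Vc+ and 4.6 kb in Vc-. WNT4, a ligand of kidney and ovary, had 7.5 kb in Vc+ as a single island over the start and 6.2 kb in Vc- as 2 islands on either side of it.

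The ligands without H3K27me3 in either condition were WNT3, WNT5A and WNT8A. At WNT5A, a ligand of cell polarity signalling, the nearest H3K27me3 island lay 643 kb away in Vc+ and 644 kb in Vc-. Its H3K4me3 covered 7.4 kb in Vc+ and 8.8 kb in Vc-, the most of any member in both libraries, with an island over each of its 2 listed starts. WNT3 had 3.4 kb of H3K4me3 in Vc+ and 3.0 kb in Vc-, in islands that all overlapped LRRC37A2 as well. WNT8A had none, with the nearest H3K4me3 island 40.4 kb away in Vc+ and 40.6 kb in Vc-.

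Among the receptors H3K27me3 was called at 7 of 10 in both conditions, and FZD4, FZD6 and FZD7 were called in neither. These 3 carried H3K4me3 alone. FZD4, a receptor that also binds norrin and is needed for retinal vessels, had 4.2 kb of H3K4me3 in Vc+ and 3.6 kb in Vc-, with the nearest H3K27me3 island 84.9 kb away in Vc+ and 142 kb in Vc-. FZD6, a receptor of planar polarity, had 2.8 kb of H3K4me3 in Vc+ and 2 kb in Vc-. FZD7, a receptor prominent in pluripotent stem cells, had 6 kb in Vc+ and 5.2 kb in Vc-. An H3K27me3 island lay 7.25 kb from FZD7 in Vc+, just outside the window, against 579 kb in Vc-. With 10 kb around the gene FZD7 was called in Vc+ alone.

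The receptors with the longest H3K27me3 were FZD10, FZD2 and FZD1. FZD10 had 11.8 kb in Vc+ and 9.0 kb in Vc-. FZD2 had 8.2 kb in Vc+ and 5.6 kb in Vc-, and FZD1 had 7.6 kb in Vc+ and 6.8 kb in Vc-. FZD5 and FZD8, which form a close pair within the family, differed in where the mark lay. At FZD5 the island of the library labelled Vc+ was 5.4 kb wide, from 207766201 to 207771600 on chromosome 2 across the start at 207769906, and covered the H3K4me3 there. In the library labelled Vc- it was 1.8 kb wide and stopped 0.894 kb short of the start, on its upstream side. The H3K4me3 at FZD5 hardly differed, with 4.8 kb in Vc+ and 5.0 kb in Vc-. At FZD8 the H3K27me3 island lay upstream of the start in both libraries, 0.904 kb from it in Vc+ and 0.504 kb in Vc-. An H3K4me3 island of 5.6 kb in Vc+ and 5.2 kb in Vc- lay over the start and shared 1.4 kb with the H3K27me3 island in each condition. FZD9, related to the zebrafish receptor of blood stem cells named above, had 2.2 kb of H3K27me3 in Vc+ and 1.8 kb in Vc-. FZD3, which guides axons in the mouse, had 1.8 kb in Vc+ with a score of 9.58 and 2.2 kb in Vc- with a score of 2.58, and 52.1% of the Vc+ list and 94% of the Vc- list scored as high. Part of the H3K4me3 counted at FZD3, an island of 2 kb in Vc+ and 1.2 kb in Vc-, overlapped the neighbouring gene FBXO16.

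Of the antagonists, H3K27me3 was called at 4 of 4 SFRP genes in both conditions, and at 2 of 4 DKK genes in Vc+ and 3 of 4 in Vc-. All 4 SFRP genes carried both marks in both conditions, and all 4 had longer H3K27me3 in the library labelled Vc+. SFRP1 differed most, with 7.6 kb in a single island in Vc+ and 3.2 kb in 2 islands in Vc-. SFRP2 had 5.4 kb in Vc+ and 4.6 kb in Vc-, SFRP4 had 6.6 kb in Vc+ and 6.2 kb in Vc-, and SFRP5 had 5 kb in Vc+ and 3.8 kb in Vc-. Their H3K4me3 was longer in Vc+ as well, for example 5.2 kb in Vc+ and 3.6 kb in Vc- at SFRP1. At SFRP4 an H3K4me3 island 3.58 kb upstream of the start overlapped the neighbouring gene EPDR1. Of the DKK genes, DKK2 had 5 kb of H3K27me3 in Vc+ and 4 kb in Vc-, and DKK3, a divergent member of the family, 1.8 kb in Vc+ and 2.4 kb in Vc-. H3K4me3 at DKK2 covered 4 kb in 1 island in Vc+ and 2 kb in 2 islands in Vc-. The H3K27me3 island nearest to DKK4 lay 473 kb away in both libraries. Its 1 H3K4me3 island, 1.8 kb in both, also overlapped VDAC3, so this call cannot be assigned to DKK4.

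Over the 28 members called in both libraries, H3K27me3 was longer in the library labelled Vc+ at 23, longer in the library labelled Vc- at 4 and equal at 1. Among all 3803 genes called in both it was longer in Vc+ at 64.1% and longer in Vc- at 28.0%. The 4 members longer in Vc- were WNT1, WNT16, FZD3 and DKK3, and the equal one was WNT10A, whose whole window was covered in both. The difference was 2 kb or more at 11 members in Vc+ and at 0 in Vc-, against 26.6% of all such genes in Vc+ and 5.42% in Vc-. The median length over the 28 members was 7.6 kb in Vc+ and 5.9 kb in Vc-, and the median difference 1.1 kb. For all such genes the medians were 5.4 kb in Vc+ and 4.6 kb in Vc-, and the median difference 0.6 kb. The direction at most members was thus that of the whole lists, whose covered length was also greater in Vc+. When islands of the lowest score were dropped from the Vc+ list until both lists covered as many bases, 23 of 28 members and 62.2% of all genes called in both were still longer in Vc+. This step removes whole islands and does not shorten those that remain. H3K4me3 was longer in Vc+ at 25 of 36 members and longer in Vc- at 7, against 59.7% of all 14879 genes called in both in Vc+ and 27% in Vc-. With lists of equal covered length these were 21 members and 55.0% of genes longer in Vc+. Only WNT10A and DKK2 differed by 2 kb or more, both longer in Vc+, against 4.96% of genes longer by that much in Vc+ and 0.571% in Vc-. The median H3K4me3 length was 3.11 kb in Vc+ and 2.5 kb in Vc-.

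**Figure D4:**
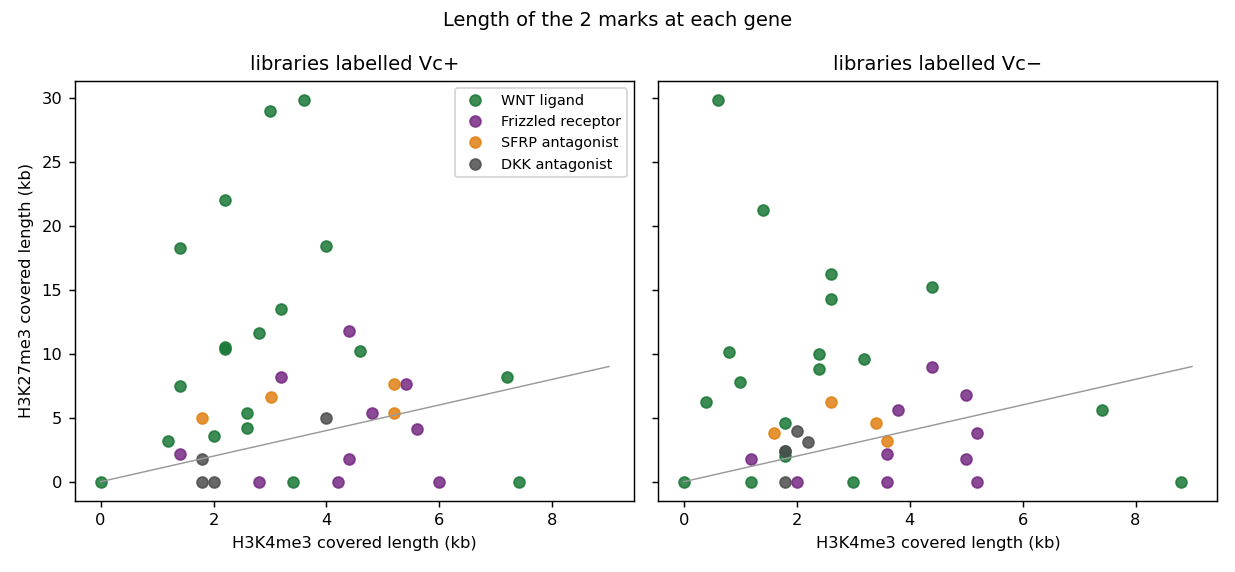
H3K27me3 covered length against H3K4me3 covered length, in kb, for each of the 37 genes in the libraries labelled Vc+ (left) and Vc- (right), coloured by role, with the grey line marking equal lengths. Most WNT ligands with H3K27me3 lie above the line, up to 29.8 kb (the whole window of WNT10A), and the FZD genes lie closer to it or below it, with up to 11.8 kb of H3K27me3 and 6 kb of H3K4me3.

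The lengths of the marks within the window were set against each other by role, with no test between roles. This window grows with the gene, and the median gene length was 29.3 kb for the WNT genes and 5.74 kb for the FZD genes. No ratio was taken without the flanks. Among members with both marks, the ratio of H3K27me3 to H3K4me3 length had a median of 4.4 over 16 WNT genes in Vc+ and 4.17 over 15 in Vc-. Over 7 FZD genes it was 1.41 in Vc+ (0.409 to 2.68) and 1.36 in Vc- (0.36 to 2.05). The ranges of the ligands, 1.14 to 13.1 in Vc+ and 0.757 to 49.7 in Vc-, overlapped them. For all genes with both marks the median ratio was 1.93 in Vc+ and 1.86 in Vc-. The ligand medians include WNT6 with WNT10A and WNT1 with WNT10B, pairs that share an H3K27me3 island, so they are not over separate loci. The widest H3K4me3 island of a gene had a median of 1.9 kb in Vc+ and 1.7 kb in Vc- over the ligands, and of 4.3 kb in Vc+ and 3.7 kb in Vc- over the receptors.

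At most ligands H3K4me3 sat inside H3K27me3. All H3K4me3 bases in the window were also under H3K27me3 at 14 of 16 WNT genes in Vc+ and at 10 of 15 in Vc-, against 38.4% of all genes with both marks in Vc+ and 35.7% in Vc-. The same held for 2 of 7 FZD genes in Vc+, FZD5 and FZD10, and for 0 of 7 in Vc-. The WNT genes outside this count in Vc+ were WNT9B and WNT11. WNT6 with WNT10A, and WNT1 with WNT10B, were inside the ligand counts in both libraries. Each of these pairs shared an H3K27me3 island, so the counts are not of separate loci. At the receptors a median of 57.1% of the H3K4me3 bases lay under H3K27me3 in Vc+ and 50% in Vc-, with the rest of H3K4me3 extending past the Polycomb mark. Among ligands with both marks in both libraries WNT11 differed most, with 97.2% in Vc+ and 43.2% in Vc-. At WNT9B, without H3K27me3 in Vc-, it was 83.3% in Vc+ and 0% in Vc-. Among receptors FZD5 differed most, with 100% in Vc+ and 12% in Vc-. No test of ligands against receptors was made, and with no margin around the genes the receptor counts were 5 of 6 in Vc+ and 1 of 5 in Vc-. The ligand counts were then 14 of 16 in Vc+ and 11 of 15 in Vc-, so in Vc+ the receptors stood apart only with the flanks included.

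**Figure D5:**
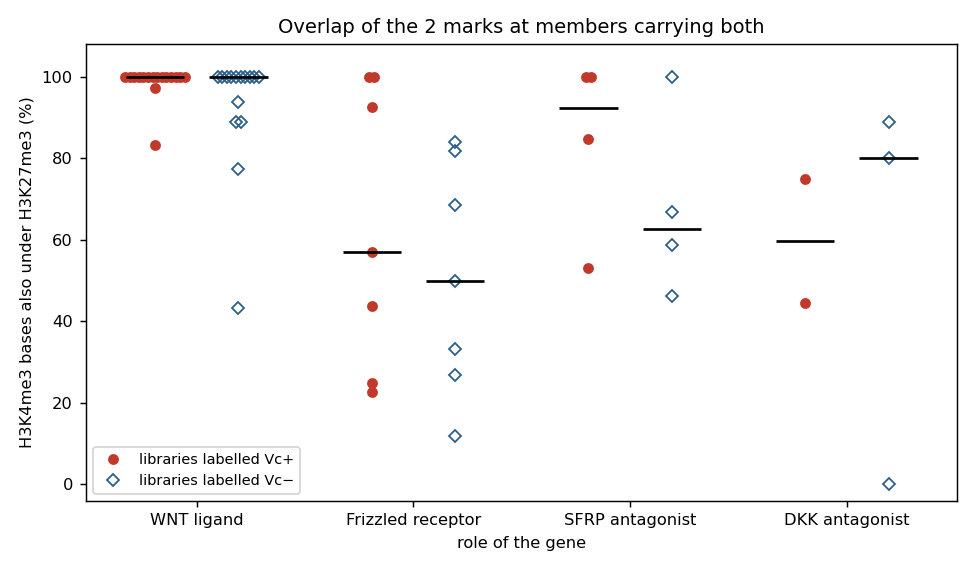
Percent of the H3K4me3 bases of each gene that also lie under H3K27me3, for members carrying both marks, by role, in the libraries labelled Vc+ (filled circles) and Vc- (open diamonds), with black lines at the medians. The WNT ligands crowd at 100% in both conditions and the FZD genes spread between 22.7% and 100% in Vc+ and 12% and 84% in Vc-.

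The other genes of the pathway were read by the same rule, from a list of 45 genes by role. H3K27me3 was called at 16 of them in Vc+ and 15 in Vc- (24.2% of all genes in Vc+ and 22% in Vc-), with 14 called in both. H3K4me3 was called at 44 in Vc+ and 43 in Vc-, against 78.8% of all genes in Vc+ and 78.7% in Vc-. PORCN, in this list, lies on chromosome X and so is not among the genes behind these percentages. R-spondins, which strengthen WNT signals, with their receptors and the ligases they inhibit, had H3K27me3 in both conditions at 5 of 9. These were RSPO1, RSPO2, RSPO3, LGR5 and LGR6. RSPO1 had 18.1 kb of H3K27me3 in Vc+ and 10.3 kb in Vc-, with an H3K4me3 island of 1.2 kb in Vc+ alone. The other antagonists had it at 5 of 9, which were FRZB, WIF1, NOTUM, KREMEN1 and KREMEN2, the last with 3.2 kb in Vc+ and 6.2 kb in Vc-. The cytoplasmic relay had it at 1 of 9, DVL1, where the island lay 3.58 kb from the gene in Vc+ and 3.98 kb in Vc-, and H3K4me3 was called at all 9, CTNNB1 (beta-catenin) and APC among them. Neither of the 2 ligand secretion genes, WLS and PORCN, had H3K27me3. The mark differed by call at LRP5 and TCF7, called in Vc+ alone (2 of 45, against 4.36% of all genes), and at ROR2, called in Vc- alone (1 of 45, against 2.13%), shares close to those of all genes. The islands were 2.8 kb wide at the co-receptor LRP5 (score 13.7) and 1.6 kb at TCF7, a transcription factor of the pathway (10.8). At ROR2, a receptor kinase for WNT5A, the island of 3.4 kb scored only 3.31. Among transcription factors and targets TCF7L1 had 6 kb in Vc+ and 1.6 kb in Vc-, SP5 had 8.06 kb in Vc+ and 6.26 kb in Vc-, and LEF1, AXIN2 and CCND1 had none in either.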

How the data were processed

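Chromatin immunoprecipitation with sequencing was done on 6 samples, 3 per condition, of which 4 carried a mark and were analysed. The submitters' processing notes name Bowtie2, SICER, deepTools, hg38 and GRCh38 and give neither their role nor any version or setting. The deposited score of each island is the authors' own. It looks like −log10 of a false discovery rate, with values from about 2 to 309 and then 1000, and it was used within a list only. Other deposited columns hold positions, with starts counted from 0 and inclusive ends, and coordinates here count from 1. The island lists have a width step of 200 bp and a smallest gap of 800 bp for H3K27me3 and 400 bp for H3K4me3. Members, pathway genes and marker genes were chosen with earlier results of these data known. All members are described, most fully those with a differing call, an H3K27me3 difference of 2 kb or more, a shared island, or one of the 3 widest H3K27me3 islands of their role. Other pathway genes were named where a call differed, with up to 3 more per role by width and further ones chosen after their values were seen. Calls, covered length and overlap were computed in Python 3.11.15 with numpy 2.4.6 and pandas 2.3.3. The calls were compared with bedtools 2.31.1, and the code was tested on simulated data holding planted islands. Promoters came from RefSeq, GRCh38.p14. Gene spans were used, and exons, introns and untranslated regions were not annotated. No sample had a replicate, and since the lists hold no counts the read depth is unknown and no interval can be given. Alternatives changed the window, the lowest score, the list size and the overlap.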

Additional observations from a re-analysis of the deposited data

How the results depend on the processing

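No paired analysis was possible because each mark and condition had 1 library, and for the same reason no replicate was left out. Of the recomputed values 215 were equal to the reported one or, for counts, within 1.5 times of it, and the 45 that moved follow. None reversed in direction. For covered length the 10 kb window, the score of 5 and the equalised lists were chosen after seeing the data. So were the alternatives to the counts of starts under a mark in 1 condition alone and of genes with all H3K4me3 under H3K27me3. With no margin around the gene, H3K27me3 was called in Vc+ alone at 2 members (WNT9B and FZD5) and in Vc- alone at 0. The median difference in length was then 0.4 kb for H3K27me3 and 0.2 kb for H3K4me3, 1 member was 2 kb or more longer in Vc+ for H3K4me3, and 5 receptors in Vc+ and 1 in Vc- had all H3K4me3 under H3K27me3. Within 1 kb of either gene end, H3K27me3 was called in Vc+ alone at 0 members and in Vc- alone at 0, H3K4me3 in Vc- alone at 1 (WNT2B), and 6 members in Vc+ and 5 in Vc- had neither mark. With 10 kb around the gene, H3K27me3 was called in Vc+ alone at 2 (WNT9B and FZD7), 1 member was 2 kb or more longer in Vc-, the median difference was 1.2 kb, and 4 members were 2 kb or more longer in Vc+ for H3K4me3. Within 1 kb of a listed start, where only 25 members have one, H3K27me3 was called at 19 in Vc+ and 18 in Vc-, in Vc- alone at 0, and H3K4me3 at 22 in Vc+ and 21 in Vc-, in Vc+ alone at 1 (WNT10A). There 18 members in Vc+ and 16 in Vc- had both marks, 4 in Vc+ had H3K4me3 alone, 1 in Vc+ and 2 in Vc- had H3K27me3 alone, and 2 in Vc+ and 2 in Vc- had neither. At a score of at least 10, H3K27me3 was called in Vc- alone at 0, H3K4me3 in Vc+ alone at 1 (WNT10B), 1 member in Vc- had H3K27me3 alone, the median H3K27me3 difference was 1.2 kb, 5 members were 2 kb or more longer in Vc+ for H3K4me3, and 0 starts were under H3K4me3 in Vc- alone. At a score of at least 5, H3K27me3 was called in Vc+ alone at 2 (WNT9B and FZD3) and in Vc- alone at 0, with a median difference of 1.2 kb. With lists of equal covered length the median H3K4me3 difference was 0.3 kb. With an overlap of at least 1 kb, H3K4me3 was called in Vc+ alone at 2 (WNT10A and WNT10B), and 1 member in Vc+ and 3 in Vc- had H3K27me3 alone. By the width of the widest island, 2 members were 2 kb or more longer in Vc- for H3K27me3, and the median differences were 1.5 kb for H3K27me3 and 0.3 kb for H3K4me3. WNT9B was thus called in Vc+ alone under each setting that makes calls except the windows at gene ends, and DKK1 in Vc- alone was lost with no margin, at gene ends, at starts and at either score. The cause of these moves was not tested.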

Other observations

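Most islands at these genes had a counterpart in the other condition. Of the H3K27me3 islands at members, 30 of 33 in Vc+ (90.9%) and 33 of 35 in Vc- (94.3%) overlapped an island of the other list, against 62.9% of all islands in Vc+ and 71.6% in Vc-. The 3 without a counterpart in Vc+ were the island at WNT9B and a pair of islands inside WNT3A. The wider of that pair did not overlap a Vc- island but directly adjoined one. The H3K27me3 islands at members were also wider than their lists. Their median width was 5.4 kb in Vc+ and 4.0 kb in Vc-, against 4.0 kb and 3.2 kb for all islands. A wider island meets an overlap of 1 bp more easily, and the part of width in these shares was not tested. Of the H3K4me3 islands at members, 47 of 52 in Vc+ (90.4%) and 49 of 51 in Vc- (96.1%) overlapped the other list, against 88.2% of all islands in Vc+ and 88.5% in Vc-. Median H3K4me3 widths were 1.8 kb in Vc+ and 1.6 kb in Vc-, at members and over all islands alike. With a reciprocal overlap of at least 50% the H3K27me3 counts were 24 of 33 in Vc+ and 24 of 35 in Vc-. For H3K4me3 they were 41 of 52 in Vc+ and 41 of 51 in Vc-. The shares of all islands given above are for an overlap of at least 1 bp, so these stricter counts have no background beside them.

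Among the 10 endothelial genes read as a check, TIE1, PECAM1, KDR, EMCN and TEK had no H3K27me3 in either condition. SOX17, a transcription factor gene of arterial endothelium, carried the most within the window, 11.6 kb in Vc+ and 13.0 kb in Vc-, the last being its whole window. By full width the widest H3K27me3 island of these genes was at ESAM in Vc+ (25 kb, against 19.8 kb at SOX17). In Vc- it was at SOX17 (24 kb). The adhesion gene ESAM carried 11.3 kb of H3K27me3 in Vc+ and 8.4 kb in Vc-, and the transcription factor gene ERG 8.6 kb in Vc+ and 8.4 kb in Vc-. CDH5, the cadherin of endothelial junctions, had an H3K27me3 island of 1.6 kb in Vc+ alone (score 13.7), and FLI1, a transcription factor gene, had one of 3.0 kb in Vc- alone (score 12.1). H3K4me3 covered 8.6 kb in Vc+ and 7.4 kb in Vc- at CDH5 and 28.8 kb in Vc+ and 21.2 kb in Vc- at FLI1.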
